A study of Homo sapiens with 64 samples.

Results

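The sequences described here are 144 of 3750 candidate RNA switches, chosen because the DNA-letter sequence of each window held 2 or more copies of ATTTA, overlapping copies included. In RNA the pentamer reads AUUUA. The rule used sequence alone and no measured value. Of the members, 109 held 2 copies, 28 held 3, 6 held 4 and 1 held 5, which made 331 copies in all. Of the other candidates, 460 held 1 copy and 3146 held none.

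The study took predicted switches from human 3′UTRs and asked in a reporter assay whether each changed expression of the gene it was attached to. Each candidate, or a scrambled control with the same name, was cloned directly downstream of the eGFP reading frame in a lentiviral vector that also encoded mCherry as an internal reference, which gave 7500 library sequences. HEK293 cells, a human embryonic kidney line, were transduced with the pool, selected with puromycin and sorted by the ratio of eGFP to mCherry into 8 bins, each holding 12.5% of the cells, from bin 1 to bin 8. The study's text writes this ratio in both orders, and bin 1 is taken here as the lowest eGFP, as the study describes its bins, so every lower and higher below rests on that reading. The sort was run in 2 replicates, and reads of every library sequence were counted in genomic DNA (gDNA, which counts integrated reporters) and in RNA of each bin. All groups share this cell line, vector and selection, and they differ in bin and molecule alone. A second library carried 4 designed mutants of each of many candidates and was sorted in the same way. The reporter stood in for the native gene, so the windows were read outside their own transcripts, and whether each sort used its own culture is not in the labels. Each fit took the bins of both sorts as its observations, so the p-values measure the spread of these sorted libraries around the fit. They do not measure the spread between independent sorts or cultures.

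AU-rich elements are stretches in the 3′UTRs of many short-lived mRNAs, among them mRNAs of cytokines, growth factors and immediate early genes. Their core is the pentamer AUUUA, often repeated or embedded in a longer run such as a nonamer in which U and A letters flank the pentamer. Proteins that bind them include tristetraprolin (ZFP36), which recruits deadenylation machinery, AUF1 (HNRNPD), and HuR (ELAVL1), which is known to stabilise bound mRNAs.

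The members were AU-rich windows of 186 nt (143 of 144, the shortest 152 nt) from 139 of the 3055 transcripts in the library. Their median GC content was 32.3%, with a range of 18.3% to 62.9%, against 57.0% over all candidates. The smallest distance between starts of neighbouring copies had a median of 36 nt. It was 4 nt, so that neighbouring copies shared an A, in 15 members, 5 to 20 nt in 34 and over 20 nt in 95. Scrambling left 102 copies in the controls of the members. No copy remained in 74 controls, 1 in 46, and 2 or more in 24, so many members were compared with a control that still held the pentamer. Transcript identifiers are used as the files give them, since none of the members' transcripts was paired with a gene name in the tables at hand.

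The nonamer, written TTATTTATT in DNA letters, was present in 10 members (6.94%), in 6 of their controls (4.17%) and in 24 of all 3750 candidates (0.64%). All 3 members called lower in gDNA by edgeR are among these 10, of which 9 are shown first, each with 30 bases of its window, 5′ to 3′, and the first nonamer in capitals. They are lettered in the order of their gDNA slope difference, lowest first, as are all members named below, and this set was singled out after its values had been seen.
Member A (ENST00000312438_part_10): tgtattaatatTTATTTATTtggagatgtt
Member B (ENST00000300179_part_5): tatttattttgTTATTTATTtcagtctgga
Member E: TTATTTATTtatcgaggcctctttggtgag
Member G: cttaggaaacaTTATTTATTctcatcattc
Member I: ctaataaagatTTATTTATTgtaatacctc
Member N: aacaaatggcaTTATTTATTaaaattctac
Member P: atttcctaattTTATTTATTtcatactgta
Member S: ctggtccTTATTTATTtaacttcacccgag
Member V: ttctatctcttTTATTTATTtctcatttac

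Most members held pentamers outside a nonamer. The stretches below come from members without a nonamer whose reporter or RNA values are given further on, with the pentamers in capitals. Members C, J, AA and AB had neighbouring copies within one stretch, and T had the most copies of any candidate.
Member C: caacactATTTAtttttttATTTAtgtcat
Member D: atataaaccttacATTTAtatagtgcacct
Member J: tgtgtaaattATTTAtATTTAatattattc
Member T: cATTTAaaATTTAaattttcagtcATTTAa
Member AA: agtgaaatATTTAatatATTTAaatatcaa
Member AB: caggccATTTAgagttgtaaATTTAcaaag
Member AE: gaaagaagataatATTTAgtaagcaataaa
Member AF (ENST00000638338_part_4): agactgcaataatATTTAgacttacattat

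Total counts per gDNA library ran from 10336115 to 13314332 in the first sort and from 13465191 to 114489304 in the second. RNA libraries were shallower, from 1126611 to 3468882 and from 851673 to 3163663. Members had a median of 2309 counts per gDNA library but 63.8 per RNA library, against a median of 276 RNA counts over all candidates. The bin 4 gDNA library of the second sort stood apart: its total count per unit of scaling factor was 1.78 times that of the median gDNA library, against 0.967 to 1.09 times in the other 15. In it the AU-rich windows were scarce, since members put 1.87% of their scaled gDNA count there against 12.3% in the same bin of the first sort, and their controls 2.54% against 11.3%, while candidates without a copy put 16.3% there. Counts of calls on gDNA are therefore given with and without that library. Leaving it out moved the members' medians by copy number, spacing, position, control copies and GC class little: with 2, 3 and 4 or more copies they were -0.052, -0.12 and -0.36 without it.

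The first question was whether members lowered or raised the reporter relative to their scrambled controls. Members sat slightly lower: their median gDNA slope difference was -0.076 (quartiles -0.25 and 0.072, range -0.90 to 0.49, 143 members), against 0.0040 over all 3745 candidates tested. The slope is the log2 change of the scaled count per bin, and the difference is candidate minus control, so a value below 0 means fewer reads towards the high-eGFP bins. One member was not tested because it averaged 1.88 counts per gDNA library, under the minimum of 10. In all, 92 of the 143 were below 0 (64.3%, against 49.1% of all candidates tested). The mean bin, which is the bin number weighted by scaled gDNA count, lay below that of the control in both sorts in 75 members (52.4%, against 34.9% of all candidates tested). It lay above the control in both sorts in 40 (27.97%, against 34.2%) and on both sides in 28.

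At an adjusted p of 0.05 (edgeR quasi-likelihood test, Benjamini-Hochberg over 3745 candidates) 3 members were lower, beside 1.63% of all candidates called lower, and none was higher, beside 1.34% of all candidates called higher. The members' share called lower was 2.10%, which is close to that background. At an unadjusted p of 0.05 the same test gave 24 members (16.8%, against 17.3% of all candidates), 19 of them lower (13.3% against 8.73%). DESeq2 called 8 lower and 1 higher (5.59% and 0.699%, against 3.04% and 2.91%). Without the bin 4 library of the second sort 14 members were lower (9.79%) and 3 higher, while over all candidates the calls rose from 61 lower and 50 higher to 214 (5.71%) and 208. The members' median was -0.075 without it. Without the first sort no member and no other candidate was called. Without the second 5 members were lower (3.5%, against 2.88% of all candidates) and 2 higher (1.4% against 2.51%). Errors were wider in members, with a median standard error of 0.18 against 0.12. More members than candidates at large had a slope difference below -0.3 (18.9% against 7.00%), whereas the shares above 0.3 were 4.90% and 5.71%.

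All 3 members called lower held the nonamer. Member A, with 4 pentamers starting at bases 98, 102, 119 and 133, gave the lowest slope difference of the group. Its gDNA in the first sort fell from 53.8% in bin 1 through 18.6%, 9.20%, 7.88%, 5.12% and 4.48% in bins 2 to 6 to 0.844% in bin 7 and none in bin 8. The control of A was spread over all bins, with 8.42% to 15.6% in each. In the second sort A had 56.6% in bin 1 and 14.9% in bin 2, and its control 14.96% and 8.52%. The mean bin of A was 2.09 and 2.26 in the 2 sorts and that of its control 4.40 and 5.03, so the sorts did not overlap. The slope difference was -0.90 (SE 0.22, adjusted p = 0.0152 by edgeR).

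Member B had 2 pentamers, at bases 54 and 66, of which the latter lay in the nonamer. Its mean bin was 2.59 and 2.76 against 4.99 and 4.35 for its control, and bins 1 and 2 held 64.8% and 60.0% of its gDNA against 22.3% and 33.1%. The slope difference was -0.61 (SE 0.12, adjusted p = 0.00195 by edgeR). B was thus low in both sorts with only the minimum number of copies.

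Member E carried nonamers at both ends of its window, with pentamers at bases 3, 7, 157 and 161. Its mean bin was 3.06 and 2.83 against 4.56 and 4.58. The slope difference was -0.53 (SE 0.11, adjusted p = 0.00603 by edgeR). Without the first sort the adjusted p of A, B and E was 0.899, 0.899 and 0.722, with slope differences of -0.91, -0.47 and -0.53.

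Among the other nonamer members G, with 4 copies, had a mean bin of 3.07 and 2.90 against 5.05 and 4.38 but only 157 gDNA counts per library, and its slope difference of -0.51 had a standard error of 0.31. The slope differences of I, N, P, S and V were -0.37, -0.24, -0.21, -0.12 and -0.027, none past the threshold. V had a mean bin of 4.54 and 5.01 against 4.73 and 4.97, so its sorts lay on both sides of its control.

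As a set the 10 nonamer members had a median gDNA slope difference of -0.44, all 10 were below 0 and 9 lay below their control in both sorts. The 133 members without the nonamer had a median of -0.063 with 82 below 0. By edgeR 0 of them were lower or higher at the adjusted threshold, beside 1.63% and 1.34% of all candidates. DESeq2 called 4 of them lower and 1 higher, beside 3.04% and 2.91% of all candidates. Nonamer members put 26.3% and 30.3% of their gDNA in bin 1 in the 2 sorts and their controls 13.1% and 18.2%. In bin 8 the shares were 3.34% and 4.70% against 7.91% and 16.7%. Without the bin 4 library of the second sort the medians were -0.44 and -0.066, with 4 nonamer members lower and, among the rest, 10 lower and 3 higher. In that setting 5.71% of all candidates were lower and 5.55% higher.

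The nonamer was also found in 14 candidates outside the group, since 1 nonamer needs a single pentamer. Their median slope difference was -0.19, 13 were below 0 and 3 were called lower. Scrambled controls give a view of the same letters in an unrelated window. In 14 controls that held the nonamer after scrambling, the slope of the sequence itself over the bins, with no partner subtracted, had a median of -0.16, 10 were below 0, and 1 was lower by edgeR. Among the 24 candidates with it this own slope had a median of -0.22, 21 were below 0 and 6 were lower. None of either set was called higher by edgeR.

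The number of pentamers went with lower medians. The median gDNA slope difference was 0.011 with no copy (3142 candidates), -0.034 with 1 (460), -0.053 with 2 (109), -0.12 with 3 (27) and -0.36 with 4 or more (7). All 7 members of the last class were below 0 and 2 of them were called lower. The nonamer and copy number overlap in these sequences, as A, E and G have both. Over all 3745 candidates Spearman's rho between copies and slope difference was -0.097, given as a description of windows that share libraries and AU content. Member T, with 5 copies, had a slope difference of -0.10 with a standard error of 0.44, since it averaged 99.9 counts per gDNA library. Its mean bin was 2.60 and 2.22, and that of its control was itself low, at 3.58 and 3.32. The control of T held 1 pentamer, which lay in a nonamer, while T held no nonamer.

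The own slope was also set beside the pentamer count in candidates and in controls. Members had a median own slope of -0.066, with 8 lower, beside 3.28% of candidates called lower, and 1 higher, beside 2.24% called higher. The 114 scrambled controls with 2 or more copies had a median of -0.024, with 0 lower and 1 higher by edgeR. Controls with no copy had a median of -0.0044, and the 353 with 1 copy a median of 0.040 with 140 below 0. With 2, 3 and 4 or more copies the control medians were -0.0046 (85), -0.021 (25) and -0.072 (4). Medians in the controls thus rose from no copy to 1 and fell from 1 copy upward. The difference between these sets was not tested. Without the bin 4 library of the second sort 23 members were lower (16.1%, against 8.52% of all candidates) and 4 higher in own slope (2.80% against 8.17%). Without the first sort no candidate was called.

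Close spacing by itself went with a small difference. Members whose nearest copies lay 4 nt apart had a median gDNA slope difference of -0.12 (15 members), those with 5 to 20 nt -0.089 (34) and those with more than 20 nt -0.058 (94). Of the 15, the 4 that held the nonamer had a median of -0.45 and the 11 that did not -0.062. Nonamer members with other spacings had a median of -0.37 (6 members). The overlapping pair ATTTATTTA without the flanking T letters is seen in members X and U, which share the stretch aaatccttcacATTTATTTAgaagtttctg, and whose slope differences were 0.020 (SE 0.14) and -0.062 (SE 0.19). Position in the window gave no order in the difference from the control: with the mean centre of the copies in the first, middle or last part of the window, cut into 3 equal parts, medians were -0.072 (28), -0.081 (81) and -0.070 (34). The own slope, the mean bin in gDNA and the RNA slope difference did run in order from first to last part. The own slope had medians of 0.010, -0.061 and -0.16, with 12, 49 and 26 members below 0. The mean bin in gDNA had medians of 4.51, 4.25 and 3.97, and the RNA slope difference 0.064, -0.032 and -0.043. The difference in RNA per gDNA, described below, did not, with medians of -0.50, -0.29 and -0.74 and 24, 51 and 24 members below 0.

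Copies left in the control did not go with a smaller difference either. The median was -0.074 against controls with no copy (74 members), -0.078 with 1 (46) and -0.075 with 2 or more (23). Base composition was compared by GC classes. Members under 35% GC had a median of -0.081 (91) and other candidates in that class -0.024 (376). At 45% GC or more it was -0.11 in members (14), of which 2 were called lower, and 0.015 in other candidates (2794). In the classes of 35 to 40% and 40 to 45% GC the members' medians were -0.044 and -0.13, and those of other candidates -0.023 and -0.024.

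Some members went the other way. AF had a mean bin of 4.74 and 4.95 against 2.96 and 2.95 in its control, with a slope difference of 0.49 (SE 0.16, adjusted p = 0.0919 by edgeR). The control of AF was itself low, with an own slope of -0.39 (adjusted p = 0.0459 by edgeR), while that of AF was 0.099. AE had a mean bin of 6.26 and 6.78 against 4.88 and 4.80, with a slope difference of 0.44 (adjusted p = 0.159 by edgeR). AD, whose stretch gaATTTActATTTAaaaaaatggaaataga holds both its pentamers, gave 0.37 (adjusted p = 0.374 by edgeR). AE was the only one of the 3 called higher in own slope, at 0.53 (adjusted p = 0.0174 by edgeR). AF, AE and AD had sorts that did not overlap those of their controls. The mean bin of AD was 5.46 and 5.22 against 4.11 and 4.45. Without the bin 4 library of the second sort AF and AE passed the threshold, at 0.00211 and 0.0242 by edgeR. At the low end C, without a nonamer, had a mean bin of 3.39 and 3.06 against 5.08 and 3.30, with a slope difference of -0.57 (adjusted p = 0.166 by edgeR).

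Members B and H also held UUUGCAC, the complement of the seed shared by the miR-19 family. These microRNAs belong to the miR-17-92 group of clusters, and the members are printed because both lay low in the bins, a choice made after their values were seen. The capitals mark bases 2 to 8 of the microRNAs, taken from RefSeq (GRCh38.p14), and the matching bases of the members.
hsa-miR-19a-3p (chromosome 13, bases 91350939 to 91350961, plus strand): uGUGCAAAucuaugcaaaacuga
hsa-miR-19b-3p (chromosome 13, bases 91351245 to 91351267, plus strand): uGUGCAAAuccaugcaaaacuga
Member B: atcagggccaagTTTGCACtctccccaatg
Member H: cttaatttaagTTTGCACtttaataccaaa

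H, with 3 pentamers and no nonamer, had a mean bin of 3.13 and 2.87 against 4.85 and 4.37, with a slope difference of -0.50 (SE 0.22, adjusted p = 0.215 by edgeR). In other candidates with UUUGCAC the median was -0.13 (65), with 5 lower. The nonamer and the microRNA match of B cannot be told apart in this comparison.

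RNA from the same sorted bins was the second readout. The members' median RNA slope difference was -0.028 against 0.017 over all candidates, and 78 of 143 were below 0 (54.5%, against 46.3% of all candidates). By edgeR 12 members were lower, beside 4.99% of all candidates called lower, with differences from -0.83 to -0.27. Another 6 were higher, beside 6.54% of all candidates called higher, with differences from 0.27 to 0.75. All 12 that were lower also had a gDNA slope difference below 0, and 1 of the 6 that were higher did. No member was called without the first sort, where 0.534% of all candidates were lower and 0.507% higher. Without the second 2 members were lower (1.4%, against 0.347% of all candidates) and none higher (against 0.507%). Across the 143 members Spearman's rho between the gDNA and RNA slope differences was 0.47, over libraries made from the same cells. AU-rich windows piled up in RNA bin 8, where members had 30.4% and 31.6% of their scaled RNA and their controls 31.4% and 32.5%, against 14.04% and 14.4% in candidates without a copy. That share moved with members and controls alike, and its part in the RNA slopes was not tested.

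A and B were lower in RNA as well as in gDNA. A had 31.8% and 29.1% of its RNA in bin 1 and 50.9% and 42.7% in bin 2, and its control 8.45% and 11.95%, and 12.6% and 9.53%. The RNA slope difference of A was -0.83 (adjusted p = 0.000324 by edgeR), from 127 RNA counts in all 16 libraries. B had 52.1% and 45.9% of its RNA in bin 2 against 7.98% and 13.9%, with a difference of -0.60 (adjusted p = 8.85e-05 by edgeR). E had an RNA slope difference of -0.29 (adjusted p = 0.0792 by edgeR).

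Members K and L, without a nonamer, were lower in RNA at -0.40 and -0.68 (adjusted p = 0.000719 and 0.00166 by edgeR), while their gDNA slope differences of -0.29 and -0.28 did not pass. H was lower at -0.62 (adjusted p = 0.0384 by edgeR), which DESeq2 did not call (0.059). AF was higher at 0.41 (adjusted p = 0.0317), the same direction as its gDNA. As a set the nonamer members had a median RNA slope difference of -0.33 with 3 lower, and the other members -0.012 with 9 lower and 6 higher.

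The third readout was the amount of RNA per gDNA, on a log2 scale. It is a steady-state level, and rates of synthesis and decay were not measured. Values given for each sort were pooled over its bins. Differences, their medians and p-values came from the edgeR fit to the separate bin libraries, so they can depart from the pooled values. The members' median difference from their controls was -0.42 against -0.079 over all candidates, and 99 of 143 were below 0 (69.2%, against 55.1% of all candidates). By edgeR 18 were lower, beside 9.59% of all candidates called lower, and 1 was higher, beside 6.09% of all candidates called higher. The members' share called lower was 12.6%. The pooled difference lay below 0 in both sorts in 80 members (55.9%, against 41.3% of all candidates), among them all 18 that were lower. The fitted differences of these 18 ran from -3.55 to -0.95. Without the bin 4 library of the second sort 29 members were lower (20.3%, against 11.7% of all candidates) and 5 higher (3.50% against 6.94%). With either sort left out 5 members were lower (3.50%, against 2.64% of all candidates without the first and 4.97% without the second) and none higher.

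AA, whose 2 pentamers start 9 bases apart, had the smallest p. Its log2 RNA per gDNA was -6.06 and -5.25 in the 2 sorts and that of its control -4.22 and -3.28. The difference was -1.97 (SE 0.33, adjusted p = 4.14e-06 by edgeR). D had -7.57 and -6.97 against -3.97 and -3.85, a difference of -3.20 (SE 0.60, adjusted p = 4.2e-05 by edgeR), from 122 RNA counts. In AB the values were -5.37 and -5.04 against -2.71 and -3.21, and the difference was -2.33 (SE 0.45, adjusted p = 8.09e-05 by edgeR).

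In these members the candidate was below its control in both sorts without overlap. J was uneven, with -4.71 and -6.62 against -3.57 and -3.53 and a difference of -2.40 (adjusted p = 0.000157 by edgeR). O and R had differences of -3.19 and -1.92 (adjusted p = 0.000544 and 0.000724 by edgeR). O rested on 98 RNA counts against 3410 in its control.

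Low RNA did not go with a low bin in every member. AA and AB had gDNA slope differences above 0 (0.17 and 0.27), with neither past the threshold, and mean bins above those of their controls in both sorts. The control of AA was itself low, with an own slope of -0.26 (adjusted p = 0.00528 by edgeR) against -0.089 in AA. Of the members called lower in gDNA slope, A alone was also lower in RNA per gDNA, at -2.50 (SE 0.85, adjusted p = 0.0344 by edgeR). B and E had -1.19 and -1.11 (adjusted p = 0.112 and 0.0639 by edgeR). Spearman's rho between the gDNA slope and RNA per gDNA differences was 0.34 across the 143 members. The measures share the gDNA counts.

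Among nonamer members the median RNA per gDNA difference was -1.15 with 3 lower (A, P and S), and among the others -0.38 with 15 lower and 1 higher. With either sort left out none of the 10 was called. Without the bin 4 library of the second sort 4 were lower and 1 higher, beside 11.7% and 6.94% of all candidates. The 7 that met a minimum of 10 RNA counts had a median of -0.95, and 1 of them was lower, beside 9.13% of all candidates. S had -3.94 and -3.54 against -2.91 and -2.60, a difference of -0.95 (SE 0.31, adjusted p = 0.0278 by edgeR) with 4100 RNA counts. P was called at -3.55 (adjusted p = 0.0198 by edgeR) from 8 RNA counts against 168 in its control, and G had 5 against 693 and was not called. V had a difference of 1.23 (adjusted p = 0.129 by edgeR), while its pooled differences in the 2 sorts were 0.90 and -0.040. The member that was higher, named after its value was seen, was ENST00000276141_part_5, at 1.21 (SE 0.43, adjusted p = 0.0419 by edgeR).

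Copy number went with RNA per gDNA as it did with the bins. Medians were -0.062 with no copy, -0.17 with 1, -0.34 with 2, -0.49 with 3 and -1.14 with 4 or more. T, the member with 5 copies, lay above its control at 2.73 (SE 1.29, adjusted p = 0.153 by edgeR), with 81 RNA counts against 29. By spacing the medians were -0.93 at 4 nt, -0.64 at 5 to 20 nt and -0.33 beyond. The 4 nonamer members among those at 4 nt had a median of -1.03 and the other 11 -0.64, level with 5 to 20 nt. Members under 35% GC had a median of -0.46 and other candidates of that class -0.21. At 45% GC or more it was -0.85 in members and -0.041 in other candidates. Low RNA depth limits these values: 24 of 143 members averaged under 10 RNA counts per library in the candidate or its control, and so did 6 of the 18 lower candidates. With 10 required of both, 119 members remained, with a median of -0.34. Of these 12 were lower (10.1%, against 9.13% of all candidates) and 1 higher (0.84% against 5.88%).

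Other short elements were searched on the sense strand. The polyadenylation signal AAUAAA was in 22.2% of members, 20.1% of their controls and 9.68% of all candidates, and its variant AUUAAA in 11.8%, 17.4% and 5.84%. The Pumilio element UGUANAUA was in 6.25%, 4.17% and 2.93%, and a run of 7 or more U in 13.9%, 12.5% and 5.87%. Members with AAUAAA had a median gDNA slope difference of -0.077 (32) and those without it -0.076, but their own slopes had medians of -0.11 and -0.061 and their RNA per gDNA differences -0.31 and -0.45. With and without AUUAAA the gDNA slope medians were -0.12 (17) and -0.068, and the own slopes -0.20 and -0.056. With and without UGUANAUA the gDNA slope medians were -0.12 (9) and -0.075, and other candidates with UGUANAUA had -0.12 (100). The 20 members with a U run had medians of -0.19 in gDNA slope and -0.82 in RNA per gDNA, and other candidates with one -0.012 and -0.53 (200). GCACUUU, the miR-17 family seed match, was in 2 members, with gDNA slope differences of -0.50 and 0.049. The first is H, where it overlaps the miR-19 match, so those matches cannot be told apart in H. In 105 other candidates with GCACUUU the median was -0.082, with 11 lower and 3 higher. These motifs can overlap each other and the pentamer, and a match is a description of letters alone.

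Predicted folding separated members only a little from their controls. The minimum free energy at 37 °C (ViennaRNA) had a median of -35.2 kcal/mol in members and -33.0 in their controls, and the member was lower in 99 of 144. The bases of the pentamers were unpaired with a median probability of 53.1%, against 43.9% for the whole window, and were the more open in 98 members. Across members Spearman's rho between the unpaired share of the pentamers and the gDNA slope difference was -0.12.

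Members from the same transcript overlapped in 5 pairs, and they show how the same copies read in shifted windows. Z and AC shared 181 nt and 3 copies, and had gDNA slope differences of 0.13 and 0.35 and RNA slope differences of 0.31 and 0.27, both called higher by edgeR (adjusted p = 0.0441 and 0.0480). Their RNA per gDNA differences were 0.0038 and -0.99. W and M shared 121 nt and 2 copies, with gDNA slope differences of -0.00017 (SE 0.29) and -0.25 (SE 0.23). Q and Y shared 93 nt, with -0.17 and 0.025 in gDNA slope and -2.73 and -2.01 in RNA per gDNA. The RNA per gDNA difference of Q passed (adjusted p = 0.00489 by edgeR) and that of Y did not (0.125). Q and Y rested on 66 and 12 RNA counts, against 1193 and 237 in their controls. The pooled differences of Y were -4.49 and -0.46 in the 2 sorts. X and U had RNA per gDNA differences of -0.93 and -0.64. The remaining pair shared 178 nt and had gDNA slope differences of 0.031 and 0.079. Each pair had its own scrambled controls, so shared copies did not mean a shared reference.

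The mutagenesis library tested changes within a window. It held 10 of the members with 40 mutants, designed to strengthen or weaken one of a pair of predicted stems, and 5 mutants of 3 members lost 1 pentamer each, while none gained one. Each mutant's gDNA slope was set against the mean of the other mutants of its set. The 5 that lost a copy had differences of -0.015, 0.016, 0.018, 0.12 and -0.010, and the 35 that kept their copies a median of -0.019. By limma 0 of the 40 were lower, beside 2.67% of all 5124 mutants called lower, and 0 were higher, beside 2.58% called higher. At an unadjusted p of 0.05 limma gave 3 of the 40, beside 19.7% of all 5124 mutants, and none of the 3 was among the 5. The widest of the 5, at 0.12, had a standard error of 0.081 (adjusted p = 0.468 by limma).

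RNA per gDNA of the mutants was read for the same 3 members. In the member with 3 copies the 2 mutants that lost a copy had log2 values of -1.25 and -0.95, and of -0.88 and -1.36, in the 2 sorts. Those that kept all copies had -2.04 and -2.32, and -1.66 and -1.41, so the groups did not overlap. In the other members values of mutants with and without the lost copy overlapped. These ratios were not tested.

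Member B was in the mutagenesis library as well, and all 4 of its mutants stayed in the low bins. Mean bins ran from 2.61 to 3.55 over mutants and sorts, against medians of 4.53 and 4.52 over all mutants. The 2 mutants that lost the nonamer while keeping both pentamers had 3.55 and 3.33, and 3.15 and 3.12. The 2 that kept it had 3.54 and 3.10, and 2.96 and 2.61. Mutants with and without the nonamer overlapped. Over all sets, with the same kind of reference, 34 tested mutants that lost a pentamer had a median difference of -0.011. The 15 that gained one had -0.011, with 0 called in either by limma.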

How the data were processed

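The authors trimmed reads with cutadapt, assigned them to library sequences with bwa mem and used featureCounts for counting (versions are not given in the sources used here). The functional screen was deposited as raw counts per library sequence and bin. The mutagenesis screen was deposited as a normalized signal, counts divided by 1 factor per library (median of ratios in the methods), so limma was used there on log2(signal + 1) in place of the count test first chosen. Molecular identifiers were cut from RNA reads, and whether duplicates were merged is not given in the sources used here. gDNA reads carry PCR duplicates.

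Scaling was by median of ratios, separately for gDNA and RNA. The 16 gDNA and 16 RNA libraries of the functional screen, 2 sorts of 8 bins, were fitted with edgeR's quasi-likelihood test (edgeR 4.0.16, R 4.3.3), with 1 feature per candidate holding its own and its control's columns. The gDNA and RNA slope tests read the product of sequence and bin number, and RNA per gDNA the product of sequence and molecule. Both sequences needed a mean of 10 counts per gDNA library. P-values were adjusted by Benjamini-Hochberg over all 3745 candidates tested, or over 5124 mutants (limma 3.58.1). Own slopes were fitted over all library sequences. Folding used ViennaRNA 2.7.2. The scripts were tested on simulated data.

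Members named with values are the 10 with the smallest p among those past 0.05 in any test, the 3 with the most copies, the 3 lowest and 3 highest gDNA slope differences, overlapping pairs, and mutants with changed copies. E, H, I, N, P, S and V were added after their values were seen. The stretch and values of 1 nonamer member are not reported here, though it is counted in the totals. The members and lists were chosen with earlier results of these data known. Alternatives were TMM and total-count scaling, no minimum and a minimum of 50, DESeq2 1.42.0, the replicate number as a block, outer bins (1 and 2 against 7 and 8), each sort left out, the bin 4 gDNA library of the second sort left out, pseudocounts of 0.5 and 10 for the mutants, and, chosen after seeing the data, a minimum of 10 RNA counts.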

Additional observations from a re-analysis of the deposited data

How the results depend on the processing

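Values are members lower and higher, and percentages are the shares of all candidates called lower and higher in the same settings. In gDNA slope difference DESeq2 gave 8 and 1, outer bins 7 and 1, and leaving out the bin 4 gDNA library of the second sort 14 and 3, against 3 and 0. The shares were 3.04% and 2.91%, 2.54% and 2.08%, and 5.71% and 5.55%, against 1.63% and 1.34%. Leaving out a sort gave 0 to 5 lower (0% to 2.88%) and 0 to 2 higher (0% to 2.51%), with medians of -0.12 to -0.075. In RNA slope difference, against 12 and 6, DESeq2 gave 14 and 3, outer bins 10 and 1, and a sort left out 0 to 2 and 0 to 0, with medians of -0.022 to -0.0093. Against 4.99% and 6.54%, the shares were 6.28% and 8.81%, 3.42% and 4.27%, and 0.347% to 0.534% and 0.507%. In RNA per gDNA, against 18 and 1, total-count scaling gave 18 and 0, DESeq2 27 and 3, no bin 4 library 29 and 5, and a sort left out 5 to 5 and 0 to 0, with medians of -0.47 to -0.39. Here the shares, against 9.59% and 6.09%, were 9.43% and 5.93%, 11.8% and 8.14%, and 11.7% and 6.94%. With a sort left out they were 2.64% to 4.97% and 1.63% to 3.26%. In own slope, against 8 and 1, DESeq2 gave 15 and 3, outer bins 9 and 2, no bin 4 library 23 and 4, and a sort left out 0 to 10 and 0 to 1, with medians of -0.084 to -0.073. For own slope the shares, against 3.28% and 2.24%, were 6.7% and 4.49%, 3.85% and 2.67%, and 8.52% and 8.17%. A sort left out gave 0% to 4.01% and 0% to 3.02%. The causes of these changes were not tested. TMM and either minimum kept all of these counts within 1.5 times. The gDNA slope difference of V was 0.0030 without the first sort, -0.060 without the second and 0.0060 with outer bins, against -0.027. No mutant that lost a copy was called under any alternative.

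Libraries of the same replicate number showed little shared deviation, with correlations of -0.20 to 0.29 (median 0.023) and 4 of 28 bin pairs over 0.1. The gDNA and RNA of a bin still came from the same sorted cells, and the main tests took no account of the replicate number. With it as a replicate block the counts were 3 and 0 in gDNA slope difference, 12 and 6 in RNA slope difference, 18 and 1 in RNA per gDNA, 7 and 1 in own slope, and 0 and 0 in mutants that lost a copy. The shares of all candidates were 1.58% and 1.5%, 4.94% and 6.97%, 9.51% and 6.03%, and 3.02% and 1.98%. Those of all mutants were 2.79% and 2.75%. Of 324 comparisons of a named member's value with an alternative, 276 kept direction and side of the threshold, 36 fell below it, 10 passed it and 2 changed sign. The precision rests on 2 sorts, and on RNA counts that are low in many members.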
